A study of Mus musculus with 6 samples.

Results

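The glucocorticoid receptor gene Nr3c1 and 5 genes that the receptor is known to regulate, Tsc22d3, Per1, Klf9, Sgk1 and Fkbp5, were followed in bone marrow (BM) of mice with JAK3 M511I-driven disease. The 6 genes were taken by symbol from the 54532 genes of the deposited expression table. No cut on a measured value entered that choice, but earlier results of these data were known when it was made. All 6 libraries came from C57BL/6 BM collected at post transplantation day 100, in 2 groups of 3 that the labels give as Phf6 WT and Phf6 KO. In the study's design, lineage-negative donor cells of either genotype received a retrovirus with GFP and JAK3 M511I, a Janus kinase made overactive by 1 amino acid change, and were transplanted into irradiated male recipients to model T-cell acute lymphoblastic leukemia (T-ALL). WT donors were Phf6 fl/y males, in which a part of the Phf6 gene is flanked by loxP sites and the gene is intact. KO donors were Vav1-Cre;Phf6 fl/y males, in which the Vav1 promoter drives Cre in hematopoietic cells from the embryo on. The labels name no Cre line; the study describes its transcriptomes as those of the Vav1-Cre model, beside which it also used an inducible Mx1-Cre model. The labels do not say whether GFP-positive cells were sorted before RNA was taken, and they spell the gene Phf6, Phf7 or Phf8 within each group; the series text names Phf6, which was used for all 6 libraries. Each is named here by its labelled group and number, such as WT 2 or KO 1.

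The glucocorticoid receptor is a hormone-activated transcription factor. Without hormone it waits in the cytoplasm with Hsp90 and co-chaperones; with hormone it enters the nucleus, binds palindromic DNA elements and switches on or represses genes together with coactivators and corepressors. Glucocorticoids kill immature lymphocytes and are a backbone of treatment in lymphoblastic leukemia, and a common set of rapidly induced genes, among them Tsc22d3, Fkbp5, Per1, Klf9 and Sgk1, is used as a readout of receptor activity in many tissues.

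Expression was given as FPKM, fragments normalised to gene length and to library size, on 13015823 to 18235095 recovered fragments per library (called reads below). Phf6 RNA did not separate the groups (7.47, 3.67 and 8.02 FPKM in WT 1 to 3 against 6.73, 5.50 and 5.11 in KO 1 to 3; log2 fold change -0.073 ± 0.33 SE, limma, adjusted p = 0.893), so directions rest on the labels; a partial deletion need not lower the RNA of the whole gene. WT 2 stood apart from the other libraries: its log2(FPKM + 1) correlated at 0.779 and 0.746 with WT 1 and WT 3, against 0.948 between those 2 and 0.963 to 0.973 among the KO libraries. In WT 2, 17.1% of reads fell in genes shorter than 1000 bases (3.11% to 5.01% elsewhere) and 6.74% in genes of 8000 bases or more (22.9% to 26.5% elsewhere). Relative to the mean of WT 1 and WT 3, the median gene in WT 2 differed on the log2 scale by -0.32 under 1000 bases, by 0.37 from 1000 to 4000, by -0.38 from 4000 to 10000 and by -1.03 from 10000 bases on. Of the 6 genes described here, 5 have 4341 to 9468 bases and differed in WT 2 by -0.014 (Tsc22d3) to -1.83 (Nr3c1). Klf9, of 3263 bases, differed by -2.86, although the median gene of its length class was higher in WT 2. Values without WT 2 are therefore given where they change a result.

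Sequence upstream of the start sites was read from RefSeq promoter windows (GRCm38.p6, 250 bases before to 50 after each start), which held 13 windows for 5 of the 6 genes: 6 for Sgk1, 3 for Tsc22d3, 2 for Per1 and 1 each for Fkbp5 and Klf9. On both strands, the full receptor palindrome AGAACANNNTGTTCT was found in 1 of these windows, of Sgk1, and in 3 of all 32851 windows (0.00913%). The relaxed form GNACANNNTGTNC, which overlaps it, was in the same Sgk1 window and in 156 windows (0.475%) of all. The single arm AGAACA of the palindrome was in 4 of the 13 windows, 3 of Sgk1 and 1 of Tsc22d3, and in 19.0% of all windows. The E-box CACGTG, the element bound by the clock factors Clock and Arntl, was in 1 window each of Sgk1, Per1 and Fkbp5 and in 7.15% of all windows. A stretch is shown for each of the 4 genes with a match, so that the called genes Tsc22d3 and Per1, which fell, Fkbp5, which rose, and Sgk1, which carries the palindrome and was not called, can be set side by side. Of the Sgk1 windows with a match, the one with the palindrome was taken. The stretches are given 5′ to 3′ on the gene's strand, and capitals mark the palindrome in Sgk1, the single arm (read as its reverse complement) in Tsc22d3 and the E-box in Per1 and Fkbp5. The Sgk1 stretch also holds its E-box and a further single arm, left in lower case, which start 246 and 242 bases before the start site.
Sgk1, chr10:21993640-21993889, plus strand: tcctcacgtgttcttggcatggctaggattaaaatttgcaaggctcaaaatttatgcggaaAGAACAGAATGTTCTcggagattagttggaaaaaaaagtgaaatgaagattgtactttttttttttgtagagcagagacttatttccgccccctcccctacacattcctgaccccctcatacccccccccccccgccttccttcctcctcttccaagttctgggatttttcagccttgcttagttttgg
Tsc22d3, chrX:140600660-140600772, minus strand: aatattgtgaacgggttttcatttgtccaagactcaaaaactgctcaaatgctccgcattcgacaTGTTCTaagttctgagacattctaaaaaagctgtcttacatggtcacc
Per1, chr11:69098699-69098947, plus strand: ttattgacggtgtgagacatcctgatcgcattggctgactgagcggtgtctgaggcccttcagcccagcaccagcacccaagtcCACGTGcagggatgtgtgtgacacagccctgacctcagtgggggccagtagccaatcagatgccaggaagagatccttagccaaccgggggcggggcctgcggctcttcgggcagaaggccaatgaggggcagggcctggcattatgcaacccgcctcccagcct
Fkbp5, chr17:28486150-28486399, minus strand: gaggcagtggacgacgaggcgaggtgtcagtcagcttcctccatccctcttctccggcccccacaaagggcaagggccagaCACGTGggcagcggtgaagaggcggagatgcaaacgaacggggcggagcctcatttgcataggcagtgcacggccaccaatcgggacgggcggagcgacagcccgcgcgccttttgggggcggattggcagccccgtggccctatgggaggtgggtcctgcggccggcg
The Sgk1 palindrome starts 189 bases before the start site, the Tsc22d3 arm 185, the Per1 E-box 166 and the Fkbp5 E-box 169. In the GENCODE M21 annotation (GRCm38) the Sgk1, Per1 and Fkbp5 stretches lie inside the gene and outside its exons, upstream of a start site within the gene, and the Tsc22d3 stretch lies just upstream of the gene. A match describes these letters and is not a measured binding site, and windows without one, such as that of Klf9, say nothing about the receptor elsewhere in a gene.

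The receptor itself was expressed in all 6 libraries. Nr3c1 (ENSMUSG00000024431, GRCm38 chromosome 18, 39410545 to 39491301, minus strand) had 32.1, 7.08 and 23.3 FPKM in WT 1, WT 2 and WT 3, and 31.4, 29.0 and 29.4 FPKM in KO 1, KO 2 and KO 3. The KO libraries lay close together, inside the range of the WT libraries, and WT 2 was the low one. The mean was 20.8 ± 12.7 FPKM (SD, n = 3) in WT and 29.9 ± 1.29 (SD, n = 3) in KO, a log2 fold change of 0.73 ± 0.52 (SE) that did not pass the test (limma, adjusted p = 0.361). Without WT 2 the log2 fold change of Nr3c1 was 0.13 (adjusted p = 0.546). A smaller difference than the error allows was not detectable with these libraries.

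Of the 6 genes, 5 passed the filter on low values (FPKM of at least 1 in at least 3 libraries) and were tested, and 3 of the 5 were called at an adjusted p under 0.05, where 26.4% of all 13393 genes tested were called. One of them, Fkbp5, was higher in KO (13.1% of all genes) and 2, Tsc22d3 and Per1, were lower (13.3% of all genes). For the same 3 genes the groups did not overlap, which held for 26.2% of all genes with KO higher and for 22.9% with KO lower. The median log2 fold change was -0.44 over the 5 genes and 0.086 over all genes tested. Without WT 2, Sgk1 was also called, making 4 of 5 where 52.0% of all genes were called (26.8% higher and 25.3% lower), and the median over the 5 genes was -0.75 against 0.040 over all genes.

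**Figure D1:**
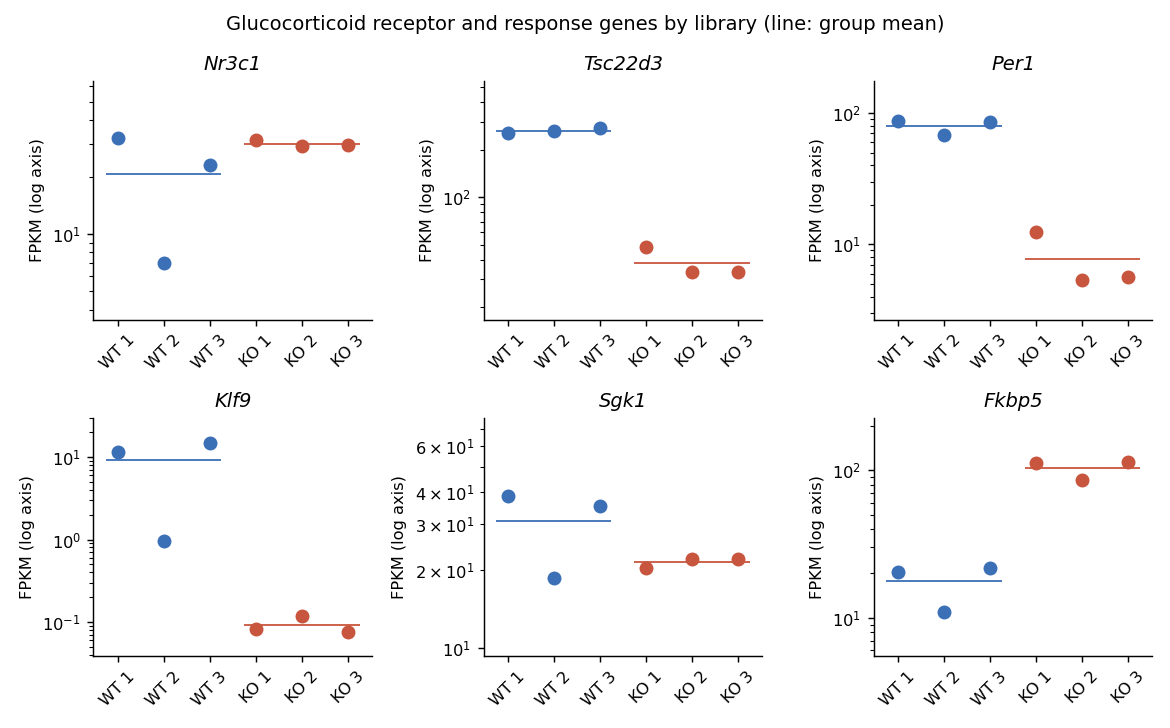
FPKM (log axis, a separate range per panel) of the receptor gene and 5 response genes in each library, WT in blue and KO in red, with a line at each group mean. Tsc22d3, Per1 and Klf9 were lower and Fkbp5 was higher in every KO library, while the KO values of Nr3c1 (29.0 to 31.4 FPKM) and Sgk1 (20.3 to 22.1 FPKM) lay within the WT range.

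Tsc22d3, which encodes the glucocorticoid-induced leucine zipper protein GILZ and mediates part of the anti-inflammatory action of the hormone, fell. Tsc22d3 (ENSMUSG00000031431, chromosome X, 140539528 to 140600659, minus strand) had 256, 262 and 273 FPKM in the WT libraries and 48.4, 33.6 and 33.4 FPKM in the KO libraries. The WT values were nearly the same, WT 2 included, and each was more than every KO value. The mean was 6.86-fold lower in KO, 38.4 ± 8.61 FPKM against 264 ± 8.44 (SD, n = 3 each). The log2 fold change was -2.77 ± 0.28 (SE; limma, adjusted p = 0.00110). By level, Tsc22d3 stood above 98.3% of the tested genes in WT and above 91.6% in KO.

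Per1, a repressor of the circadian clock that glucocorticoids induce directly, fell further. Per1 (ENSMUSG00000020893, chromosome 11, 69095217 to 69109960, plus strand) had 87.6, 68.3 and 85.2 FPKM in the WT libraries and 12.4, 5.35 and 5.64 FPKM in the KO libraries. KO 1 held the highest KO value of both Per1 and Tsc22d3, and the groups did not overlap for either gene. The mean of Per1 was 10.3-fold lower in KO, 7.80 ± 4.0 FPKM against 80.4 ± 10.5 (SD, n = 3 each). Its log2 fold change was -3.29 ± 0.35 (SE; limma, adjusted p = 0.00136). Its level stood above 94.6% of the tested genes in WT and above 55.3% in KO.

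Klf9, a Krüppel-like repressor induced by glucocorticoid and thyroid hormones, was near the detection limit in KO. Klf9 (ENSMUSG00000033863, chromosome 19, 23141226 to 23166911, plus strand) had 11.4, 0.965 and 15.1 FPKM in WT 1, WT 2 and WT 3, from 576, 37 and 763 reads. In KO 1, KO 2 and KO 3 it had 0.0823, 0.117 and 0.0761 FPKM, from 5, 6 and 4 reads. The 95% Poisson intervals, which cover counting error only, ran from 0.679 to 1.33 FPKM in WT 2, the lowest WT library, and from 0.0429 to 0.254 FPKM in KO 2, the highest KO library, so they did not meet. Because FPKM reached 1 in only 2 libraries, Klf9 was not tested in the main model; the difference of the group means on the log2(FPKM + 1) scale was -2.75. With a filter of 2 libraries, an alternative chosen after seeing the data, the adjusted p of Klf9 was 0.0433 (limma). With no filter it was 0.0875 (limma). With the filter of 2 libraries and WT 2 left out it was 0.000105 (limma) at a log2 fold change of -3.70. Klf9 met that filter only through WT 1 and WT 3, where it was high, and WT 2 held its lowest WT value. In that last setting 3729 genes were higher and 3924 lower of 14631 tested. The p-values under this filter are therefore not support for a difference. With all 6 libraries and a pseudocount of 0.1, the difference of the group means was -4.90.

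Sgk1, a kinase induced by glucocorticoids and mineralocorticoids that acts on ion channels and FoxO factors, did not pass the test. Sgk1 (ENSMUSG00000019970, chromosome 10, 21882184 to 21999903, plus strand) had 38.6, 18.6 and 35.3 FPKM in the WT libraries and 20.3, 22.1 and 22.1 FPKM in the KO libraries. WT 1 and WT 3 were above the KO libraries, and WT 2 was below all of them. The mean was 30.8 ± 10.7 FPKM in WT and 21.5 ± 1.02 in KO (SD, n = 3 each). The difference was -0.44 on the log2 scale, ± 0.32 (SE; limma, adjusted p = 0.377). WT 2 decided the call: without it the log2 fold change of Sgk1 was -0.75 (adjusted p = 0.00385), and with array weights, which gave WT 2 a weight of 0.0509, it was -0.78 (adjusted p = 0.000681).

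Fkbp5, an immunophilin of the Hsp90 complex that is induced by the receptor and in turn lowers its affinity for hormone, went the other way. Fkbp5 (ENSMUSG00000024222, chromosome 17, 28399094 to 28517527, minus strand) had 20.3, 11.0 and 21.7 FPKM in the WT libraries and 112, 86.7 and 114 FPKM in the KO libraries. The lowest KO value was above every WT value. The mean was 5.90-fold higher in KO, 104 ± 15.2 FPKM against 17.7 ± 5.85 (SD, n = 3 each). On the log2 scale it rose by 2.54 ± 0.33 (SE; limma, adjusted p = 0.00258). Fkbp5 rose from above 74.7% to above 97.8% of the tested genes by level. A short gene annotated inside an Fkbp5 intron on the same strand, AC154912.5, had a mean of 1.53 FPKM in WT and 5.23 in KO; how reads shared by overlapping genes were assigned, and whether strand was used, is not given in the sources used here.

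**Figure D2:**
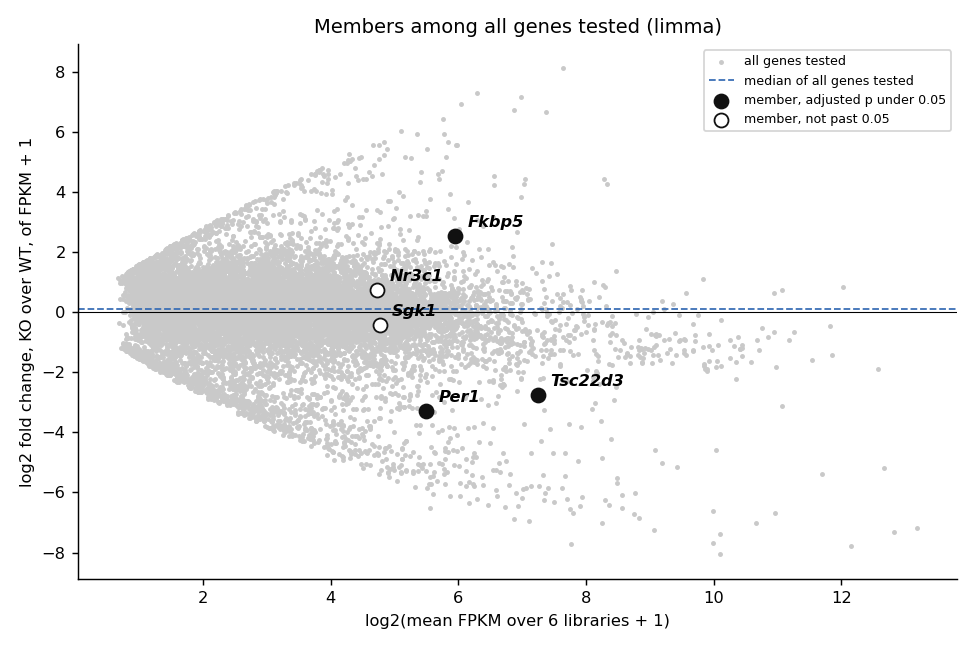
Log2 fold change (KO over WT, of FPKM + 1) against log2 of the mean FPKM + 1 for the 13393 genes tested (grey), with the 5 tested receptor and response genes as large points, filled where the adjusted p was under 0.05. Fkbp5 lay at 2.54, above 97.7% of the tested genes, and Per1 and Tsc22d3 lay at -3.29 and -2.77, above 3.28% and 4.94% of them.

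The order of the 6 genes by level differed between the groups. In each KO library the order of FPKM, highest first, was Fkbp5, Tsc22d3, Nr3c1, Sgk1, Per1 and Klf9, and no neighbours in it overlapped across the 3 libraries. In WT 1 and WT 3 it was Tsc22d3, Per1, Sgk1, Nr3c1, Fkbp5 and Klf9, and in WT 2 Fkbp5 stood above Nr3c1. Over the WT libraries Tsc22d3 and Per1 were apart from the rest, whereas the ranges of Sgk1 and Nr3c1, of Nr3c1 and Fkbp5, and of Fkbp5 and Klf9 overlapped. Fkbp5 was thus the highest of the 6 in every KO library and among the lowest 3 in every WT library.

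A ratio of 2 genes within a library is free of the scaling between libraries, though not of differences by gene length such as those in WT 2. The FPKM of Fkbp5 was 0.0794, 0.0418 and 0.0795 times that of Tsc22d3 in WT 1, WT 2 and WT 3, and 2.32, 2.58 and 3.41 times in KO 1, KO 2 and KO 3. Set against the receptor, Tsc22d3 was 7.99 to 37.0 times Nr3c1 in WT and 1.14 to 1.54 times in KO, and Per1 was 2.73 to 9.64 times in WT and 0.184 to 0.396 times in KO. These ranges did not overlap, but no share over other gene pairs was taken to set beside that. Tsc22d3 and Per1 also did not overlap between the groups on their own. Sgk1 per Nr3c1 was 1.20 to 2.63 in WT and 0.648 to 0.761 in KO, and Klf9 per Nr3c1 was 0.136 to 0.649 in WT and 0.00259 to 0.00403 in KO. Fkbp5 per Nr3c1 ran the other way, from 0.634 to 1.55 in WT and from 2.99 to 3.88 in KO. The FPKM of Sgk1 thus overlapped between the groups while its ratio to Nr3c1 did not; both genes were lower in WT 2 than in the other WT libraries.

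**Figure D3:**
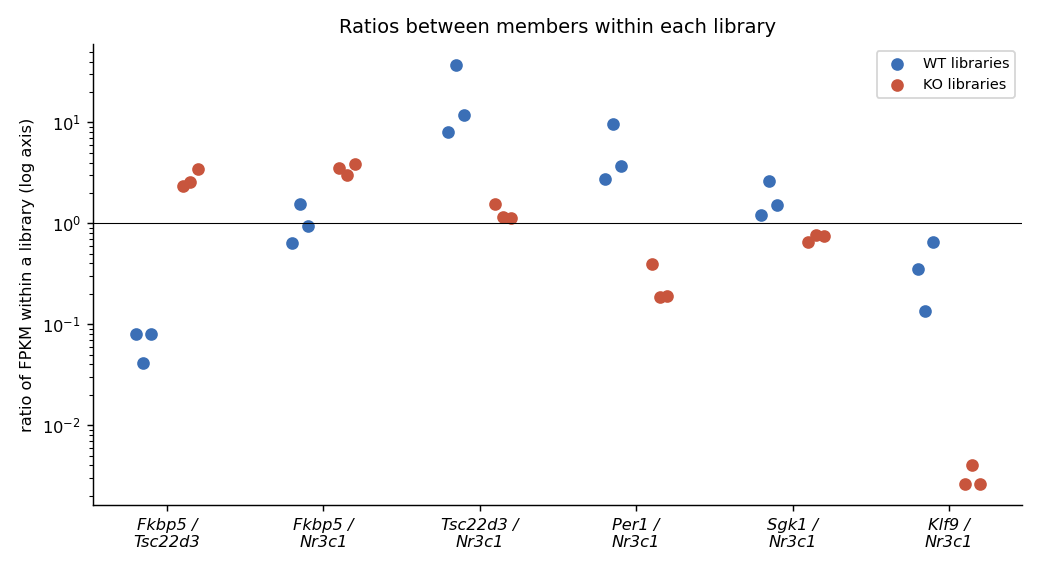
Ratios of FPKM between pairs of the 6 genes within each library (log axis), WT in blue and KO in red, 3 points a group. Fkbp5 over Tsc22d3 lay at 0.0418 to 0.0795 in WT and 2.32 to 3.41 in KO. The groups overlapped for none of the 6 ratios, and no share over other gene pairs was taken. All ratios except Fkbp5 over Tsc22d3 share Nr3c1, and only Sgk1 and Nr3c1 overlapped between the groups on their own.

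Of 20 genes of the receptor's chaperone and cofactor machinery, 19 were tested, and 3 of them were called where 26.4% of all genes were, 2 higher and 1 lower in KO. Their median log2 fold change was -0.0022 against 0.086 over all genes, and without WT 2 it was -0.35 against 0.040. Nrip1, a corepressor of nuclear receptors, rose from 3.60, 1.04 and 3.59 FPKM in WT to 14.8, 8.91 and 14.4 in KO (log2 fold change 1.94 ± 0.41 SE, limma, adjusted p = 0.0154). Smarca4, the ATPase of the BAF chromatin remodeller that the receptor recruits, rose from 26.2, 34.4 and 26.8 to 69.4, 44.4 and 76.3 FPKM (1.07 ± 0.30, adjusted p = 0.0404), a call that was lost in 9 of 18 alternatives. Neither gene's groups overlapped. The Nrip1 call was lost without KO 1 (1.82, adjusted p = 0.0722) and without KO 3 (1.84, adjusted p = 0.0721), and that of Smarca4 without any 1 library other than WT 2 (0.92 to 1.30, adjusted p from 0.052 to 0.159). The list count was 0 without KO 1 or KO 3 and 1 without WT 1 or KO 2.

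The Hsp70 genes of that machinery, whose products load the receptor onto Hsp90, had their highest values in WT 2. Hspa1b had 5.87, 11.6 and 1.61 FPKM in WT and 0.134, 0.272 and 0.155 in KO (log2 fold change -2.36 ± 0.55 SE, limma, adjusted p = 0.0219), and it shares most of its sequence with Hspa1a, so its reads are uncertain. Hspa8 had 518, 1342 and 373 FPKM in WT and 174, 194 and 229 in KO (-1.68 ± 0.56, adjusted p = 0.0695), and it passed without WT 2 (-1.15, adjusted p = 0.00611). Without WT 2 the list held 2 higher and 4 lower genes, beside 26.8% and 25.3% of all genes. The Hspa1b call was lost without WT 1 or any 1 of the KO libraries (-2.28 to -2.41, adjusted p from 0.0683 to 0.0843). Fkbp4, the co-chaperone that competes with Fkbp5 for Hsp90, had 55.8, 162 and 33.4 FPKM in WT and 26.3, 36.2 and 45.1 in KO, groups that overlapped (-0.92 ± 0.59, adjusted p = 0.305); it is named here for its pairing with Fkbp5, after its values were seen. The ratio of Fkbp5 to Fkbp4 within a library was 0.0676 to 0.650 in WT and 2.39 to 4.26 in KO.

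Among 9 genes that make, convert, export or bind steroids, 5 were tested, 1 was higher and 2 were lower, beside 13.1% and 13.3% of all genes. The median log2 fold change of the 5 was 0.67, and 0.38 without WT 2. Abcb1a, an efflux pump of the P-glycoprotein family that exports glucocorticoids, fell from 12.7, 6.50 and 16.3 FPKM in WT to 0.0490, 0.104 and 0.113 in KO, where it had 5, 9 and 10 reads (log2 fold change -3.48 ± 0.34 SE, limma, adjusted p = 0.00105). Abcb1a reached 1 FPKM in the WT libraries only, so the filter admitted it through the group where it was high. Hsd11b1, the enzyme that regenerates active glucocorticoid inside cells, fell from 28.5, 15.7 and 18.4 to 5.83, 6.41 and 6.94 FPKM (-1.52 ± 0.28, adjusted p = 0.00953). H6pd, which supplies Hsd11b1 with NADPH in the endoplasmic reticulum, rose from 10.7, 5.86 and 10.5 to 32.0, 26.5 and 23.5 FPKM (1.53 ± 0.30, adjusted p = 0.0114). The partner genes thus moved in opposite directions, and the ratio of Hsd11b1 to H6pd was 1.75 to 2.69 in WT and 0.182 to 0.295 in KO. The Hsd11b1 call was lost after rescaling to TPM (-0.81, limma, adjusted p = 0.335) and with voom on the recovered reads (-1.25, adjusted p = 0.0707). The antisense gene 4930570N18Rik, whose mean was 16.0 FPKM in WT and 10.9 in KO, overlaps Hsd11b1. Without KO 1 or KO 2, Hsd11b1 (adjusted p = 0.0507 and 0.0513) and H6pd (adjusted p = 0.058 and 0.0556) both fell just short in limma, leaving Abcb1a as the 1 gene of the list called.

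The other 2 tested steroid genes did not pass. Nr3c2, the mineralocorticoid receptor, which also binds glucocorticoids, had 0.510, 0.171 and 0.797 FPKM in WT and 1.15, 1.90 and 1.30 in KO (log2 fold change 0.73 ± 0.23 SE, limma, adjusted p = 0.0641). Star, which brings cholesterol into mitochondria for steroid synthesis, had 2.27, 0.993 and 3.12 FPKM in WT and 3.92, 4.68 and 2.88 in KO (0.67 ± 0.34, adjusted p = 0.201). In KO the receptor Nr3c1 stood far above Nr3c2 in every library, as it did in WT.

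Of 26 other genes known to respond to glucocorticoids, 22 were tested, of which 12 were lower and 1 was higher in KO, beside 13.3% and 13.1% of all genes, and the median log2 fold change was -1.35. Dusp1, a phosphatase that switches off MAP kinases, fell from 220, 143 and 201 FPKM in WT to 1.93, 2.0 and 2.40 in KO (log2 fold change -5.91 ± 0.25 SE, limma, adjusted p = 0.000233). Anxa1, an anti-inflammatory annexin that is abundant in myeloid cells, fell from 393, 301 and 88.6 to 1.44, 4.46 and 3.05 FPKM (-5.86 ± 0.61, adjusted p = 0.00128). Errfi1, an inhibitor of EGF receptor signalling, fell from 11.1, 5.82 and 16.4 to 0.0599, 0.106 and 0.0694 FPKM, with 4, 6 and 4 reads in KO (-3.39 ± 0.37, adjusted p = 0.00141). For these 3 genes every KO value was far under every WT value. Errfi1 reached 1 FPKM in the WT libraries only, so the filter admitted it through the group where it was high.

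The called gene of that list that rose was Ddit4, an inhibitor of mTORC1 induced by glucocorticoids and by stress. Ddit4 had 16.1, 16.0 and 20.8 FPKM in WT and 218, 147 and 137 in KO (log2 fold change 3.15 ± 0.29 SE, limma, adjusted p = 0.000767). Like Fkbp5, it was higher in all 3 KO libraries while most of the list was not. Il7r, a chain of the interleukin-7 receptor, was picked after its values were seen: it had 219, 73.8 and 227 FPKM in WT and 16.8, 24.7 and 23.3 in KO (-2.80 ± 0.49, adjusted p = 0.00757). Without WT 2 the list counted 17 lower and 1 higher (median -1.76), beside 25.3% and 26.8% of all genes, and without KO 2 or KO 3 it counted 7 called genes.

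**Figure D4:**
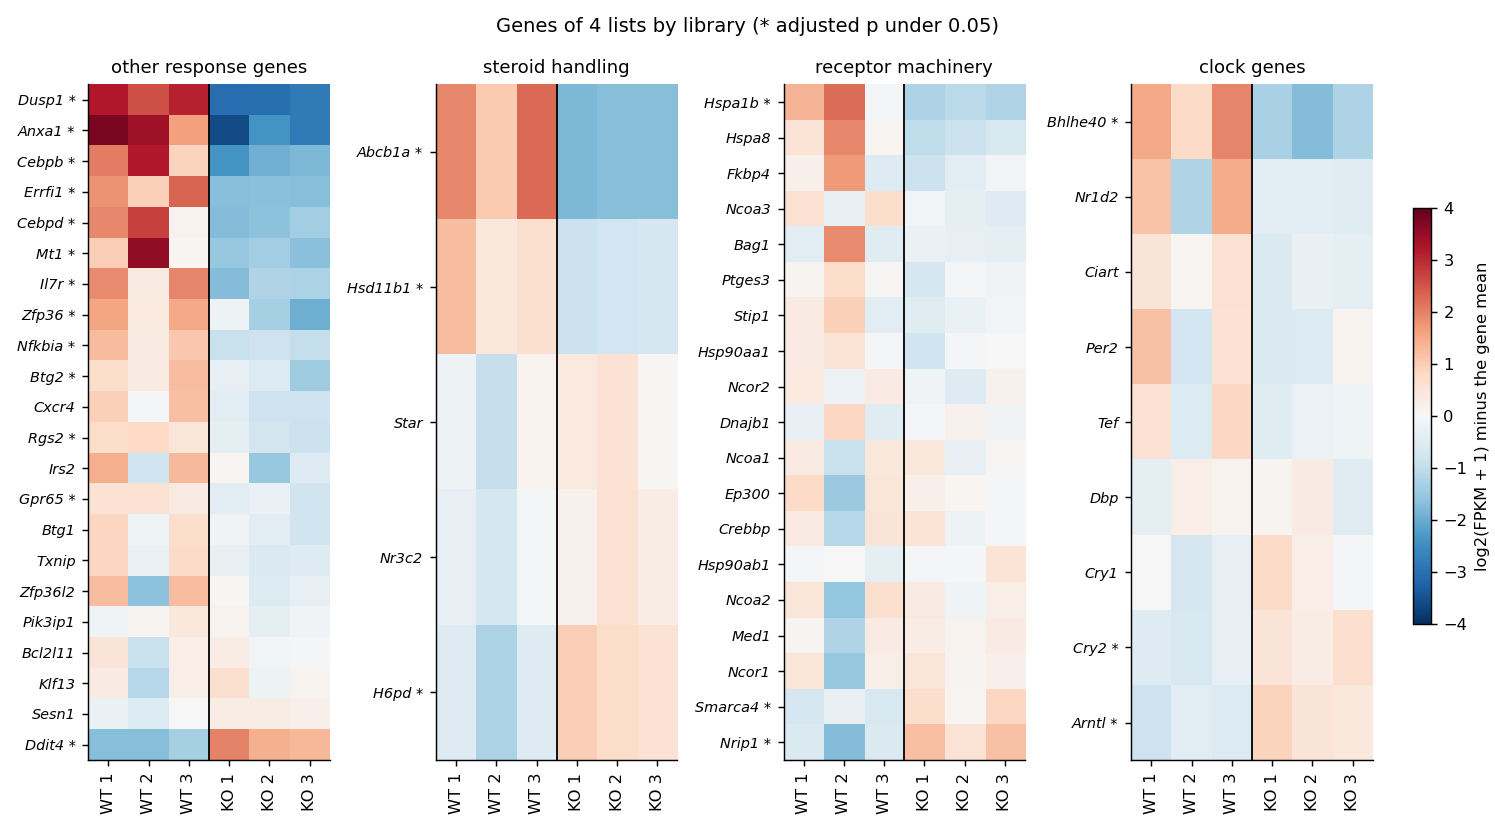
Log2(FPKM + 1) minus the gene's mean over the 6 libraries for tested genes of 4 lists (1 clock gene is not shown), ordered by log2 fold change, red above and blue below the mean; an asterisk marks an adjusted p under 0.05. Dusp1 and Anxa1 head the response list with the lowest values in KO, Ddit4 stands out as higher in KO, and WT 2 differs from WT 1 and WT 3 in many rows of receptor machinery.

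Of 17 clock genes, the family to which Per1 belongs, 10 were tested, 3 were higher and 1 was lower, beside 13.1% and 13.3% of all genes (median log2 fold change -0.31). Bhlhe40, a clock repressor that is also induced on T-cell activation, fell from 21.0, 12.1 and 29.1 FPKM in WT to 2.15, 1.32 and 2.30 in KO (log2 fold change -2.83 ± 0.36 SE, limma, adjusted p = 0.00254), a call that was lost after rescaling to TPM (-2.41, adjusted p = 0.0563). Of the core clock genes, Arntl and Cry2 were higher, while Clock was lower in every KO library. Clock, picked after its values were seen, had 4.71, 0.750 and 5.31 FPKM in WT and 0.375, 0.416 and 0.462 in KO. It did not pass the filter and was not tested. Arntl, the partner of Clock, had 1.55, 2.33 and 2.06 FPKM in WT and 7.29, 5.43 and 4.96 in KO (1.20 ± 0.25, adjusted p = 0.0147), and Cry2, a repressor that pairs with Per proteins, had 3.40, 2.97 and 3.95 in WT and 8.04, 6.67 and 9.01 in KO (1.00 ± 0.24, adjusted p = 0.0234). The calls of Arntl and Cry2 were each lost in 5 alternatives, among them those without WT 1, KO 1 or KO 2 (adjusted p from 0.0532 to 0.0663 for Arntl and from 0.0686 to 0.0994 for Cry2) and, for Cry2, without KO 3 (0.115). The list had 2 calls in each of the first 3 of these and 8, of which 5 were lower, without WT 2. In that last setting 26.8% of all genes were higher and 25.3% were lower. The paralog Per2 had 5.79, 0.784 and 3.46 FPKM in WT and 0.999, 1.06 and 2.30 in KO, overlapping groups (-0.66 ± 0.52, adjusted p = 0.400), and is named beside Per1 after its values were seen.

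Of 18 close relatives of the 6 genes, 13 were tested, 0 were higher and 2 were lower, beside 13.1% and 13.3% of all genes. Their median log2 fold change was -0.56, and -0.21 without WT 2. Sgk3, a kinase related to Sgk1, fell from 3.48, 1.55 and 1.94 to 0.289, 0.781 and 0.503 FPKM (log2 fold change -1.09 ± 0.27 SE, limma, adjusted p = 0.0283). Klf16, a relative of Klf9, fell from 10.3, 12.7 and 15.5 to 4.0, 5.63 and 5.83 FPKM (-1.17 ± 0.26, adjusted p = 0.0200). Both calls were fragile, being lost in 9 of 17 alternatives for Sgk3 and in 7 of 18 for Klf16. Without any 1 library other than WT 2 the adjusted p of Sgk3 was 0.0538 to 0.111 (limma). Without WT 3 or any 1 KO library that of Klf16 was 0.0551 to 0.0897. The list then had 0 calls, or 1 without WT 1, and 5 without WT 2, where 52.0% of all genes were called. Tsc22d2 had 5.85, 1.63 and 5.85 FPKM in WT and 2.12, 2.17 and 1.70 in KO (-0.74 ± 0.42, adjusted p = 0.251), and without WT 2 it passed at -1.20 (adjusted p = 0.00198).

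Markers of other blood cells differed between the groups. Each library pools the RNA of many cells, sorted or not, so fewer cells of a type and less RNA per cell cannot be told apart. The counts below stand beside 13.3% of all genes tested called lower and 13.1% called higher. Without WT 2 these shares were 25.3% and 26.8%. The summed FPKM of 10 neutrophil markers was 6639 to 93752 in WT and 91.2 to 280 in KO, and 10 of 10 were lower in KO. That of 8 monocyte and macrophage markers was 376 to 4822 in WT and 19.3 to 26.8 in KO (5 of 7 tested lower), and that of 6 NK cell markers was 86.3 to 195 and 0.467 to 1.53 (5 of 5 tested lower). With such low KO sums the NK cell markers passed the filter mainly through WT, so lower was nearly the only possible direction. The same held for Cxcr2 (neutrophils), Cd14 and Csf1r (monocytes) and Cx3cr1 (effector CD8 T cells), under 1 FPKM in every KO library. Of 8 genes of effector CD8 T cells, 7 were lower and 1 was higher, with sums of 1643 to 5216 in WT and 586 to 660 in KO. The gene that was higher, Gzma, made up 566 to 615 FPKM of the KO sums, and the other 7 genes summed to 1630 to 5165 FPKM in WT and 19.8 to 51.4 in KO. The summed FPKM of 8 erythroid markers was 137 to 68069 in WT, highest in WT 2, and 10.8 to 121 in KO (0 of 6 tested passed, and 2 were lower without WT 2), and that of 7 B cell markers was 12.3 to 1013 and 1.74 to 12.1 (0 of 4 tested passed, and 3 were lower without WT 2). The 8 general T-cell markers summed to 752 to 1700 in WT and 650 to 794 in KO, with 2 of 8 lower (median log2 fold change -0.25), and without WT 2 with 3 lower and 2 higher (median 0.064). Some of these genes were at 0 in KO libraries, namely 1 NK cell marker in each, 2 and 3 B cell markers in KO 2 and KO 3, 1 effector CD8 T-cell gene in the same libraries and 1 erythroid marker in KO 3. The 7 stromal and endothelial markers, low throughout, summed to 5.80 to 11.2 FPKM in WT and 17.2 to 18.2 in KO, and the 1 tested was higher. The sum does not stand for the list, since untested markers went the other way. Mean FPKM fell from 0.177 in WT to 0.0421 in KO for Col1a1 and from 0.408 to 0.00219 for Cxcl12. Col1a2 and Cdh5 also had lower means in KO.

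Within the WT libraries these sums and the response genes could be set side by side. The neutrophil sum was 32742, 93752 and 6639 FPKM in WT 1, WT 2 and WT 3, while Tsc22d3 had 256, 262 and 273 FPKM and Per1 had 87.6, 68.3 and 85.2 in the same libraries. Anxa1 had 393, 301 and 88.6 FPKM there. The NK cell sum, 195, 86.3 and 188 FPKM, and the effector CD8 T-cell sum, 1643, 5216 and 1986 FPKM, separated WT from KO as well, and so did Tsc22d3, Per1 and Klf9. The part of each cell type in the results for the 6 genes was not tested.

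Scaling moved all genes together in 2 alternatives. After rescaling to TPM the median of all genes stood at 0.86 on the log2 scale, and 67.8% of calls were higher in KO in place of 49.6%; with voom on the recovered reads the median was 0.56 and 60.2% of calls were higher. Relative to the TPM median, Tsc22d3 was at -2.81, Per1 at -3.44, Sgk1 at -0.48, Nr3c1 at 0.71 and Fkbp5 at 2.55, so each kept its side; the Sgk1 value before this subtraction was 0.38. Over the 18 alternatives the log2 fold change ran from -2.94 to -1.95 for Tsc22d3, from -3.64 to -2.59 for Per1 and from 2.24 to 3.40 for Fkbp5, and each stayed past the threshold, with adjusted p up to 0.0272, 0.0259 and 0.0183. Nr3c1 ran from -0.032 to 1.56 and passed in none.

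**Figure D5:**
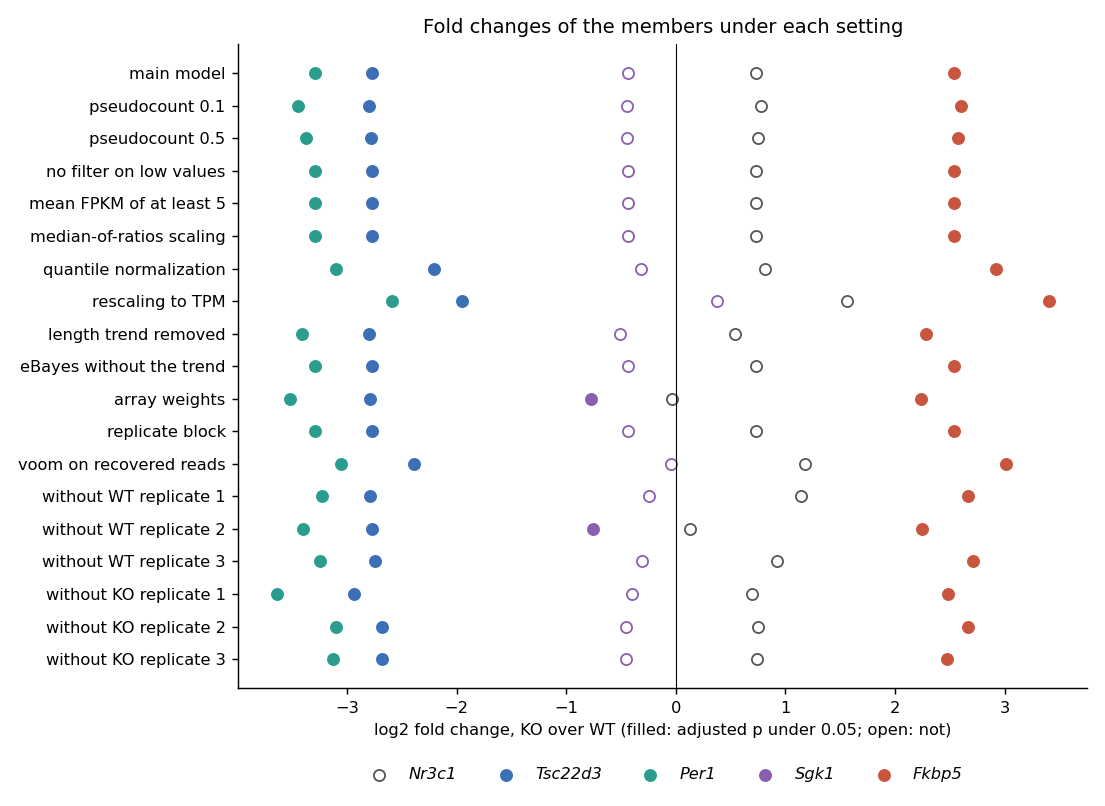
Log2 fold change (KO over WT) of the 5 tested receptor and response genes under the main model and 18 alternatives, filled where the adjusted p was under 0.05. Tsc22d3, Per1 and Fkbp5 stayed on one side and filled throughout, Sgk1 was filled with array weights and without WT replicate 2 only, and Nr3c1 was unfilled throughout.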

How the data were processed

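RNA-seq values of 6 BM libraries were used, 3 for each of the Phf6 WT and Phf6 KO labels. The authors deposited FPKM per gene, with gene length and coordinates; the submitters' processing notes name HISAT2 2.0.5, featureCounts 1.5.0-p3 and GRCm38 (mm10), without their roles, and the study tested counts with DESeq2. Multiplied by gene length, 100% of values were whole numbers of a constant step (tolerance 0.01 reads), which gave reads per gene; the library size used by the authors was 0.645 to 1.21 times the recovered total, so a scaling is part of the deposited FPKM. A gene with no reads could have had up to 0.161 to 0.255 RPM (3 reads). Intervals and this floor cover counting error only, because PCR copies are not independent molecules.

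Genes that reached 1 FPKM in 3 or more of the 6 libraries were tested on log2(FPKM + 1), which understates changes of low genes, with limma 3.58.1 (eBayes with trend, two-sided) in R 4.3.3 and Benjamini-Hochberg adjustment over all 13393 genes, threshold 0.05, and no block. A gene under 1 FPKM in every library of 1 group was tested only through the other group, where it was high, so its direction was set by the filter. This held for Errfi1, Abcb1a, Hspa1b and Sgk3 (high in WT) and for Nr3c2 (high in KO), among others. The script was tested on simulated data. An exact permutation test of 3 against 3 cannot give a p under 0.1 and was not used. The labels do not say that replicates came from separate animals, so p-values measure the spread between these samples. No 2 libraries held identical values or agreed within sampling noise.

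The 6 genes, the lists of machinery, steroid, response, clock, paralog and marker genes, and the rule for genes named were chosen with earlier results of these data known. Of each list the 4 tested genes with the smallest p were named (all tested genes of steroid handling); others are said to be chosen after their values were seen. Results for 2 genes under this rule are not reported here. Alternatives were other pseudocounts, filters, scalings, a length correction, variance models, voom, a replicate block and leaving out each library. Promoter windows came from RefSeq and gene structures from GENCODE M21. Other software was Matplotlib 3.10.9, SciPy 1.17.1, NumPy 2.4.6, pandas 2.3.3 and Python 3.11.15, with the R package data.table (version 1.17.8).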

Additional observations from a re-analysis of the deposited data

How the results depend on the processing

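Tsc22d3, Per1 and Fkbp5 kept their direction and stayed past the threshold in all 18 alternatives. Nr3c1 changed sign with array weights (-0.032) and Sgk1 after rescaling to TPM (0.38); neither of these 2 values is a loss of a call, and the cause was not tested. List counts moved more, against 3 receptor machinery genes, 3 steroid, 13 other response, 4 clock and 2 paralog genes in the main model. Array weights gave 9, 5, 20, 8 and 6 of them, and all genes called rose to 4388 higher and 4073 lower. No filter and a mean FPKM of at least 5 each gave 1 machinery gene, and the latter 1 paralog and 786 higher and 1051 lower genes in all. Rescaling to TPM gave 7 response genes and 0 paralogs, and voom 8 and 0. Leaving out 1 library gave 3 to 4 of the 6 genes, 0 to 6 machinery, 1 to 3 steroid, 7 to 18 response, 2 to 8 clock and 0 to 5 paralog genes. The upper ends of machinery, response, clock and paralog genes came without WT 2 (3584 higher and 3383 lower in all), and leaving out 1 KO library gave 938 to 989 higher and 996 to 1082 lower genes, with fewer samples in the test. Median-of-ratios scaling changed nothing, since the deposited FPKM already carried it. For Klf9 the pseudocount moved the difference most.

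The replicate number as a block gave 1207 higher and 1469 lower genes in all, 2 clock genes and 0 paralogs, and called Tsc22d3, Per1 and Fkbp5. Libraries with the same number did not deviate together (correlations 0.095, 0.105 and -0.153), and not every library correlated best with its own number. With 3 libraries a group and WT 2 apart from the others, these correlations cannot show whether the numbers pair samples.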

Other observations

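Cyp11a1, the enzyme that starts steroid synthesis from cholesterol, was picked after its values were seen. It had 0.647, 57.8 and 0.443 FPKM in WT 1, WT 2 and WT 3 (48, 3264 and 33 reads) and 0.514, 0.278 and 0.0905 FPKM in KO 1, KO 2 and KO 3, so WT 2 alone was high, and it did not pass the filter. Abcb1b, the close copy of Abcb1a, also chosen after its values were seen, had 3.0, 0.777 and 3.10 FPKM in WT and 0.134, 0.00795 and 0.0389 in KO, and its reads are uncertain because the copies are alike.

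By likeness of pattern, taken as Pearson's correlation of log2(FPKM + 1) over the 6 libraries among 10388 protein-coding genes, the genes most like Nr3c1 were Arf3 (0.998), Slk (0.994) and Ptpn11 (0.994). Among those most like Tsc22d3 were Kifap3 (0.999) and Pbxip1 (0.997), and those most like Per1 were Kifap3 (0.998), Sh2d2a (0.998) and St6gal1 (0.998). Blm (0.999), Med24 (0.998) and Mtf2 (0.998) were most like Fkbp5, and Ghrl (0.997), Nt5dc3 (0.995) and Nptn (0.993) most like Sgk1. The 6 points share their group split and the departure of WT 2 from the other libraries. A correlation of at least 0.99 was reached by 71 genes for Tsc22d3, 47 for Fkbp5, 28 for Per1, 23 for Nr3c1 and 6 for Sgk1.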
